A study of Homo sapiens with 31 samples.

Results

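Bone morphogenetic proteins (BMPs) are secreted ligands that bind paired serine/threonine kinase receptors, whose signal reaches the nucleus through SMAD1, SMAD5 and SMAD9 together with SMAD4. Secreted antagonists such as GREM1 bind the ligands outside the cell, and ID genes are classic early targets that encode inhibitors of basic helix-loop-helix transcription factors. In the colon the antagonists are known from mesenchymal cells around the crypt base, and BMP signalling is known to act on epithelial differentiation. The 8 genes described here are the ligands BMP2, BMP4 and BMP7, the antagonist GREM1, and the targets ID1, ID2, ID3 and ID4. They were chosen by name from a count table of 17113 protein-coding genes, and all 8 were in the table and passed the filter on low counts.

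RNA was profiled from 5 human lines labelled as wild-type and untreated: the colorectal adenocarcinoma lines LoVo, LS1034, HT-29 and HCT116, and CCD841CoN, labelled as normal colon. Mutations carried by the cancer lines were not examined. Each line had 3 unmixed libraries, and RNA of each cancer line was also mixed into CCD841CoN RNA at 0.1, 1, 10 and 50%, with 1 library per mixture. The cells grew in RPMI-1640 or DMEM with 10% serum, and the labels do not say which line grew in which medium. Whether replicates were grown separately is not stated, so the p-values measure only the spread between these libraries, which may be technical. The series asked whether cancer RNA of a known share can be recovered from a mixture.

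The 31 libraries held 9688765 to 56741879 counts. In the CCD841CoN libraries 7 epithelial markers summed to 210 to 265 CPM (counts scaled to the library total), against 2395 to 22881 in the cancer lines, and 2 of the 7 had no count there. Of 7 fibroblast markers the sum was 24835 to 29053 CPM in CCD841CoN and 0.877 to 31.3 CPM in the cancer lines. The 4 smooth muscle markers summed to 1564 to 1868 CPM in CCD841CoN, from ACTG2 (1582 CPM on average) and CNN1 (156 CPM), with MYH11 and DES under 1 CPM, and to at most 11.6 CPM in the cancer lines. Of the epithelial markers KRT18 stood at 232 CPM in CCD841CoN. As CCD841CoN was the only normal line, a difference between cancer and normal cannot be told apart from one between cell types in any comparison with it. HT-29 replicate 2 stood apart: 350 of 12062 genes (2.90%) were at least 3-fold above both other HT-29 libraries, against 0.240 to 1.33% in the other unmixed libraries. HT-29 replicate 3 had 743 genes (6.16%) at least 3-fold below both other HT-29 libraries, against at most 3.77% in the other unmixed libraries. CCD841CoN replicate 1 differed from the other CCD841CoN libraries in BMP2 (0.516 times the mean of the others), BMP7 (0.0683 times), GREM1 (1.57 times) and ID4 (2.18 times), and values without HT-29 replicate 2 or CCD841CoN replicate 1 are given with these genes. Without HT-29 replicate 3 the call of ID4 between HT-29 and HCT116 was the only one of the 8 genes that changed.

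The regions just before the transcription starts of the ID genes are shown because ID1 and ID3 moved together between HT-29 libraries while ID2 did not. Each is 250 bases, 5′ to 3′ on the gene's strand, from RefSeq on GRCh38.p14. They lie at chr20:31605039-31605288 (ID1, plus strand), chr2:8681806-8682055 (ID2, plus), chr1:23559502-23559751 (ID3, minus) and chr6:19837120-19837369 (ID4, plus). Capitals mark every match to CAGAC (the SMAD box), CCAAT or TATAAA on either strand.
ID1: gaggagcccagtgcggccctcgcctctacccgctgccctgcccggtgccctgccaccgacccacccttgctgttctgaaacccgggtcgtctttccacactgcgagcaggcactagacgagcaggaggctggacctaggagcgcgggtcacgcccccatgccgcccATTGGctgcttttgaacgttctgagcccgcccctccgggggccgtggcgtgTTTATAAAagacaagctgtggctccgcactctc
ID2: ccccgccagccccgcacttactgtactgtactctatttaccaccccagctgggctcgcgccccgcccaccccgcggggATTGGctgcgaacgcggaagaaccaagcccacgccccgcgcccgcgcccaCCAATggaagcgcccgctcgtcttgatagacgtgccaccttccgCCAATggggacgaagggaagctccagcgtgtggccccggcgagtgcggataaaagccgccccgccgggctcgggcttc
ID3: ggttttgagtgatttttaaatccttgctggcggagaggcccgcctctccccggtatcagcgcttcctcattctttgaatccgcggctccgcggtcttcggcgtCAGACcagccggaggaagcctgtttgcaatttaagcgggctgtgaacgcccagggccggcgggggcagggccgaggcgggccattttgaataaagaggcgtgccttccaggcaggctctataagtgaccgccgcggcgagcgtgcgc
ID4: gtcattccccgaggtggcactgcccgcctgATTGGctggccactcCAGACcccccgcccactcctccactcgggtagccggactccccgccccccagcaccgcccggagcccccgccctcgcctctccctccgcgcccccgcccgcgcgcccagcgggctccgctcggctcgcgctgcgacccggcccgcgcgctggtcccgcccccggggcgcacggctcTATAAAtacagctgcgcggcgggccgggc
CAGAC occurred in the ID3 and ID4 windows, as in 38.0% of 35116 human promoter windows of this length. CCAAT occurred in ID1, ID2 and ID4 (32.0% of windows), with 3 matches in ID2. TATAAA occurred in ID1 and ID4 (10.7% of windows), 31 and 29 bases before the start on the gene's strand. In ID1 a match on the other strand overlaps it. GGCGCC, a GC-rich sequence bound by BMP-activated SMADs, is in 16.4% of windows and in none of these 4. Sequence outside the 250-base windows was not searched, so its absence there is not known. The GC content was 66.0% (ID1), 69.2% (ID2), 62.0% (ID3) and 78.8% (ID4). A match to such short letters is a description of the window and not of a bound site.

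The first comparison sets each cancer line against CCD841CoN. BMP4 was higher in all 4 cancer lines, BMP2 and GREM1 were lower in all 4, and ID3 was lower in 3 of 4 by the test. BMP7 and ID4 differed by line, and neither ID1 nor ID2 passed the test in any line. A gene was called at an adjusted p below 0.05 (edgeR quasi-likelihood test, Benjamini-Hochberg over all 14452 genes tested) together with a log2 fold change of 1 or more in size. For the mean of the 4 lines 5 of 8 genes were called, where 47.1% of all genes tested were called. Of the 5, 1 was higher (24.8% of all genes) and 4 were lower (22.3%). In single lines 5 were called in LoVo (48.0% of all genes), 4 in LS1034 (47.1%), 5 in HT-29 (45.7%) and 6 in HCT116 (46.7%). With 1 library of the compared lines left out, the counts were 4 to 5 in LoVo, 3 to 4 in LS1034, 5 to 6 in HT-29 and 4 to 5 in HCT116. Of all genes tested 11.0% were called higher and 10.9% lower in all 4 lines. The median log2 fold change of the 8 for the mean of the lines was -1.21, against 0.22 over all genes.

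**Figure D1:**
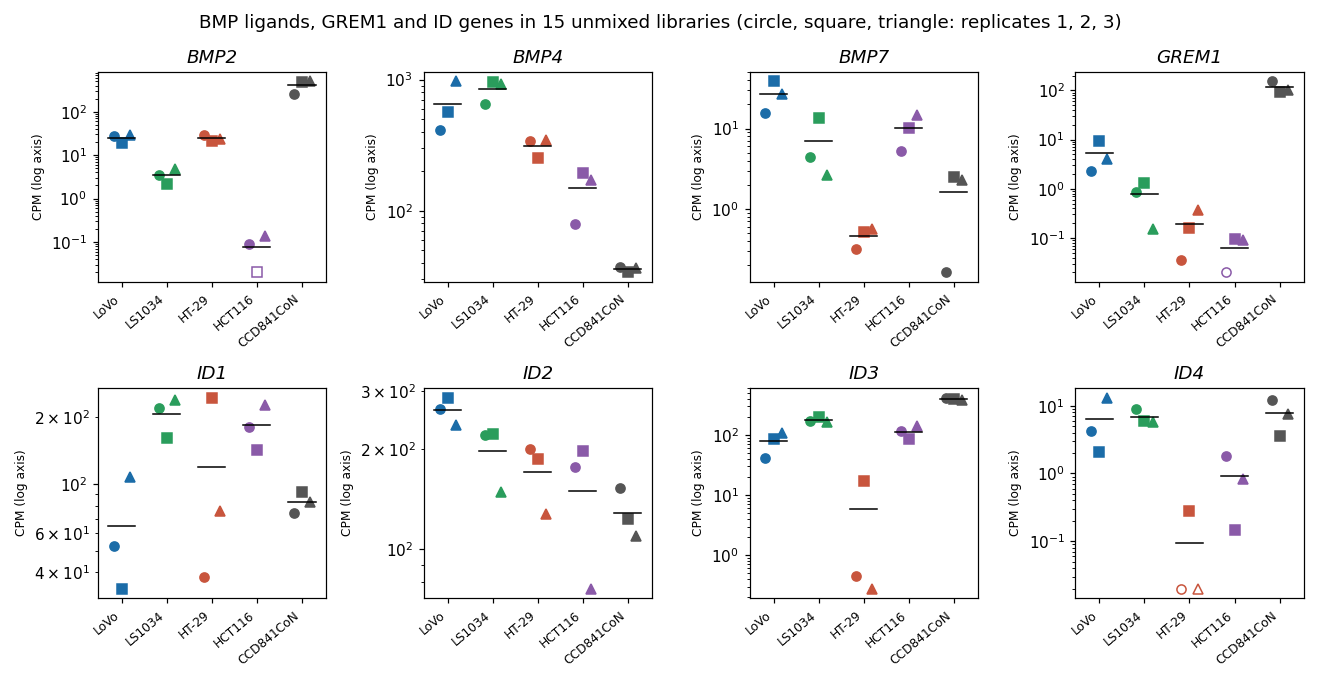
CPM (log axis, a separate scale per gene) of each gene in the 15 unmixed libraries, with the line mean as a bar and open symbols at 0.02 CPM for libraries with no count. All BMP4 points of CCD841CoN lie below all cancer points, those of BMP2, GREM1 and ID3 lie above them, and 1 HT-29 library lies far above the other 2 in ID3.

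BMP2, a ligand first known for inducing bone, stood at 253, 481 and 499 CPM in CCD841CoN replicates 1, 2 and 3. It stood at 27.3, 18.8 and 29.1 CPM in LoVo and at 29.4, 21.1 and 23.1 CPM in HT-29. In LS1034 the values were 3.53, 2.12 and 4.85 CPM. HCT116 was lowest, at 0.0908, 0 and 0.139 CPM, which are 3, 0 and 3 counts. No cancer library overlapped with CCD841CoN, and within the cancer lines LoVo and HT-29 overlapped while LS1034 and HCT116 each stood alone. The mean level in CCD841CoN was 16.4 times that in LoVo, 16.8 times that in HT-29 and 117 times that in LS1034. Log2 fold changes were -4.35 ± 0.42 (SE) in LoVo, -4.31 ± 0.42 in HT-29 and -7.15 ± 0.49 in LS1034, with adjusted p of 4.06e-07, 4.19e-07 and 8.46e-09. In HCT116 the fitted value of -12.53 ± 0.65 (adjusted p = 1.71e-09) rests on 6 counts over 3 libraries and depends on the prior count. Without CCD841CoN replicate 1 the values in the same order of lines were -4.59, -4.55, -7.39 and -12.78, all called.

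BMP4, the close relative of BMP2 in sequence and receptor use, differed from CCD841CoN in the other direction, while HCT116 was the lowest cancer line for both genes. It stood at 36.9, 33.9 and 36.8 CPM in CCD841CoN. LS1034 held 652, 950 and 924 CPM and LoVo 415, 563 and 968 CPM. HT-29 held 338, 251 and 344 CPM, and HCT116 held 79.3, 195 and 172 CPM. Each cancer library was above each CCD841CoN library; LoVo and LS1034 overlapped, and HT-29 and HCT116 lay below both without overlap. The log2 fold change was 4.28 ± 0.39 in LS1034 (adjusted p = 1.61e-07), 3.85 ± 0.38 in LoVo (4.66e-07), 2.88 ± 0.36 in HT-29 (6.87e-06) and 1.72 ± 0.35 in HCT116 (6.56e-04). Per kilobase of exon, BMP2 was the higher of these ligands in CCD841CoN, with a mean of 114 ± 38.1 CPM per kb against 17.0 ± 0.824 for BMP4 (SD, n = 3). In the cancer lines BMP4 was the higher, at 400 ± 78.4 in LS1034, 308 ± 136 in LoVo, 148 ± 24.8 in HT-29 and 70.6 (37.7 to 92.5) CPM per kb in HCT116, and the mean of BMP2 did not exceed 6.96 CPM per kb in any of these lines.

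BMP7, a ligand of another BMP subgroup that also signals through SMAD1, SMAD5 and SMAD9, was low and differed between cancer lines. LoVo held 15.6, 38.6 and 26.9 CPM, HCT116 5.24, 10.3 and 14.7 CPM, and LS1034 4.41, 13.7 and 2.61 CPM. HT-29 held 0.313, 0.521 and 0.556 CPM. In CCD841CoN replicate 1 had 0.162 CPM, against 2.49 and 2.27 CPM in replicates 2 and 3. LoVo, HCT116 and LS1034 lay above CCD841CoN without overlap, and HT-29 lay within its range. BMP7 was called higher in LoVo (log2 fold change 3.76 ± 0.80, adjusted p = 8.70e-04) and HCT116 (2.37 ± 0.76, adjusted p = 0.0156), with 3.16 (adjusted p = 0.00209) and 1.77 (adjusted p = 0.0434) without CCD841CoN replicate 1. In LS1034 it was at the threshold (1.84 ± 0.75, adjusted p = 0.0499), with 1.24 and adjusted p = 0.141 without CCD841CoN replicate 1, and 0.84 and adjusted p = 0.384 without LS1034 replicate 2. That call was also lost without LS1034 replicate 1 (adjusted p = 0.0565) or CCD841CoN replicate 3 (adjusted p = 0.0637). With all libraries kept, DESeq2 (adjusted p = 0.0509) and edgeR with the DESeq2 size factors (adjusted p = 0.0745) lost it too. So did edgeR without the filter (adjusted p = 0.0503) and a fit of the compared lines alone (adjusted p = 0.119). HT-29 was not called (-2.03 ± 0.84, adjusted p = 0.0522), and passed without CCD841CoN replicate 1 (-2.63, adjusted p = 0.00638). With all libraries kept, it also passed with DESeq2 (-2.22, adjusted p = 0.0126) and in edgeR with the DESeq2 size factors (-2.20, adjusted p = 0.0414). The HCT116 call was lost without HCT116 replicate 3 (adjusted p = 0.054).

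GREM1, a secreted antagonist that binds BMP2, BMP4 and BMP7, stood at 152, 94.3 and 100.0 CPM in CCD841CoN. LoVo held 2.33, 9.29 and 4.07 CPM, and LS1034 0.847, 1.33 and 0.149 CPM. HT-29 held 0.0348, 0.160 and 0.370 CPM, which are 1, 4 and 4 counts. HCT116 held 0, 0.0971 and 0.0925 CPM, which are 0, 2 and 2 counts. The CCD841CoN libraries were above all others, and LoVo was above the other cancer lines without overlap. GREM1 was called lower in LoVo (log2 fold change -4.84 ± 0.63, adjusted p = 9.58e-06), LS1034 (-7.43 ± 0.73, adjusted p = 3.77e-07), HT-29 (-9.80 ± 0.85, adjusted p = 1.06e-07) and HCT116 (-11.21 ± 0.91, adjusted p = 7.30e-08). Without CCD841CoN replicate 1 the values in this order were -4.58, -7.18, -9.51 and -10.94, all called, and without HT-29 replicate 3 that of HT-29 was -10.46. The summed fibroblast markers of the cancer libraries were 0.00319 to 0.114% of their mean in CCD841CoN, and at GREM1 the mean of LoVo was 4.53% and that of LS1034 0.672% of the CCD841CoN mean. In HT-29 and HCT116 the GREM1 means were 0.163 and 0.0547% of that in CCD841CoN. The part of fibroblast RNA in the GREM1 counts was not tested in any cancer line.

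**Figure D2:**
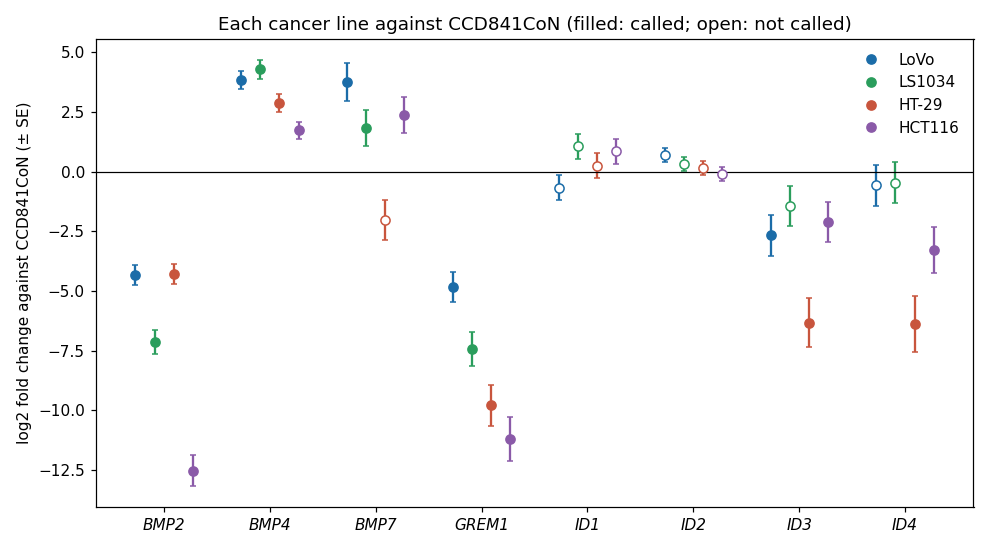
Log2 fold change of each gene in each cancer line against CCD841CoN, with bars of ± 1 standard error from the edgeR fit. Filled points were called and open points were not: BMP2 and GREM1 lie below 0 and BMP4 above 0 in all 4 lines, and ID1 and ID2 have only open points.

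Among the ID genes, ID3 was the one with the highest level in CCD841CoN, at 420, 398 and 382 CPM. LS1034 held 169, 202 and 166 CPM, HCT116 115, 85.1 and 143 CPM, and LoVo 41.3, 87.6 and 110 CPM. HT-29 held 0.452, 17.2 and 0.278 CPM, or 13, 428 and 3 counts, so replicate 2 was 47.0 times the mean of the other 2. All 12 cancer libraries were below all 3 CCD841CoN libraries. ID3 was called lower in LoVo (log2 fold change -2.67 ± 0.86, adjusted p = 0.0158), HT-29 (-6.34 ± 1.03, adjusted p = 8.36e-05) and HCT116 (-2.11 ± 0.84, adjusted p = 0.046). In LS1034 it was not (-1.44 ± 0.83, adjusted p = 0.154), while a fit of LS1034 and CCD841CoN alone, which leaves the HT-29 spread out, gave -1.54 and adjusted p = 6.21e-05. Without HT-29 replicate 2 the HT-29 value was -10.32 (adjusted p = 5.28e-09), and that for the mean of the lines went from -3.14 to -4.18. The HCT116 call was lost when any 1 HCT116 or CCD841CoN library was left out (adjusted p 0.0696 to 0.116), and the LoVo call without LoVo replicate 1 (adjusted p = 0.0651).

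ID1, the founding member of the family, stood at 74.3, 91.8 and 82.9 CPM in CCD841CoN. LS1034 held 220, 162 and 240 CPM and HCT116 182, 143 and 228 CPM. LoVo held 52.7, 33.8 and 107 CPM and HT-29 38.2, 245 and 75.6 CPM. LS1034 and HCT116 lay above CCD841CoN without overlap, and LoVo and HT-29 spread across its range. None of the 4 differences passed the test. The largest was in LS1034 (log2 fold change 1.05 ± 0.52, adjusted p = 0.10), which passed with library totals as the only scaling (1.32, adjusted p = 0.0419). In HT-29 the value was 0.25 ± 0.52, and -0.85 (adjusted p = 0.13) without HT-29 replicate 2. The mean of the lines went from 0.37 to 0.04 without that library.

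ID2, which is also known as a target of pathways other than BMP, was called in no line. It stood at 152, 124 and 110 CPM in CCD841CoN, 264, 286 and 237 CPM in LoVo and 221, 223 and 148 CPM in LS1034. HT-29 held 200, 186 and 127 CPM and HCT116 177, 197 and 76.2 CPM. LoVo alone lay above CCD841CoN without overlap (log2 fold change 0.69 ± 0.30, adjusted p = 0.0619), and passed with scaling by library size only (1.03, adjusted p = 0.0109). In the other 3 lines the value lay between -0.10 ± 0.30 (HCT116) and 0.33 ± 0.30 (LS1034).

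ID4 was the lowest of the ID genes. CCD841CoN held 12.01, 3.60 and 7.43 CPM, LoVo 4.17, 2.09 and 13.2 CPM, and LS1034 8.85, 5.91 and 5.67 CPM. HCT116 held 1.82, 0.146 and 0.833 CPM. HT-29 held no count in replicates 1 and 3 and 7 counts (0.281 CPM) in replicate 2. HT-29 and HCT116 lay below CCD841CoN without overlap, while LoVo and LS1034 overlapped with it. ID4 was called lower in HT-29 (log2 fold change -6.39 ± 1.18, adjusted p = 2.86e-04) and HCT116 (-3.29 ± 0.95, adjusted p = 0.0082), and without HT-29 replicate 2 the HT-29 value was -10.72. Without CCD841CoN replicate 1 the values were -5.89 in HT-29 and -2.79 in HCT116 (adjusted p = 0.0012 and 0.0366). Per kilobase of exon, ID3 was the highest of the 4 in CCD841CoN, at 320 ± 15.1 CPM per kb, where ID1, ID2 and ID4 had means of 67.3, 60.1 and 3.28. In LS1034, HT-29 and HCT116 ID1 had the highest mean of the family per kilobase (168, 97.1 and 149 CPM per kb), and in LoVo it was ID2 (123 CPM per kb). In LS1034 the libraries of ID1 and ID3 overlapped on this scale (131 to 194 and 133 to 161 CPM per kb). In HT-29 this order turned without replicate 2, as the mean of replicates 1 and 3 was 46.2 CPM per kb for ID1 and 76.4 CPM per kb for ID2.

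The second comparison sets the cancer lines against each other in 6 pairs. LoVo carried the most BMP7 and GREM1, HCT116 the least BMP2 and BMP4, and HT-29 the least BMP7, ID3 and ID4. Of the 8 genes, 3 were called between LoVo and LS1034 (26.0% of all genes tested), 4 between LoVo and HT-29 (27.2%) and 5 between LoVo and HCT116 (22.1%). LS1034 differed from HT-29 in 6 (22.6%) and from HCT116 in 4 (32.9%), and HT-29 from HCT116 in 5 (30.6%). The same replicate numbers of the cancer lines deviated together over all genes, so values with a block for the number among these lines are given where they change a call. Replicates of one number are not said in the labels to share a day or batch.

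BMP2 was called in 5 of the 6 pairs. Against HCT116 it was higher in LoVo (log2 fold change 8.19 ± 0.59, adjusted p = 9.49e-08), HT-29 (8.23 ± 0.59, adjusted p = 6.40e-08) and LS1034 (5.39 ± 0.59, adjusted p = 3.36e-06). LoVo and HT-29 were 7.15 and 6.999 times the level of LS1034. Between LoVo and HT-29 the value was -0.04 ± 0.37 (adjusted p = 0.951). BMP4 was called in 4 pairs and was lower in HCT116 than in every other cancer line, with log2 fold changes over HCT116 of 2.56 ± 0.36 in LS1034, 2.13 ± 0.35 in LoVo and 1.15 ± 0.34 in HT-29 (adjusted p = 4.00e-05, 3.18e-04 and 0.0154). The last of these was lost without HT-29 replicate 1 (adjusted p = 0.0548) or HCT116 replicate 1 (adjusted p = 0.0533). LS1034 also exceeded HT-29 (1.40 ± 0.34, adjusted p = 0.00653). LoVo over HT-29, at 0.97 ± 0.34, lay under the fold limit and passed it without LoVo replicate 1 or 2 (1.19 and 1.12).

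BMP7 was lower in HT-29 than in LoVo (log2 fold change of LoVo over HT-29 5.79 ± 0.89, adjusted p = 1.45e-04), LS1034 (3.87 ± 0.83, adjusted p = 0.00256) and HCT116 (HT-29 over HCT116 -4.40 ± 0.85, adjusted p = 8.04e-04). The ratio of mean levels to HT-29 was 58.4 in LoVo, 21.8 in HCT116 and 14.9 in LS1034. The other pairs with LoVo were not called without the replicate block and passed with it: LoVo over LS1034 (1.99, adjusted p = 0.00452, against 1.92 and 0.0545 without the block) and LoVo over HCT116 (1.38, adjusted p = 0.0305, against 1.39 and 0.169). LoVo over LS1034 also passed without LS1034 replicate 2 (2.86, adjusted p = 0.0174), with DESeq2 (adjusted p = 0.0306), in a fit of these lines alone (adjusted p = 0.0286) and without the filter (adjusted p = 0.0499). GREM1 was higher in LoVo than in LS1034 (2.59 ± 0.62, adjusted p = 0.00442), HT-29 (4.96 ± 0.78, adjusted p = 1.73e-04) and HCT116 (6.37 ± 0.85, adjusted p = 3.97e-05). LoVo thus had the highest level of the antagonist and of BMP7 among the cancer lines. GREM1 was also called higher in LS1034 than in HT-29 (2.36 ± 0.82, adjusted p = 0.0433), on 63 and 9 counts over 3 libraries each, and this call was lost with the replicate block (2.32, adjusted p = 0.0949), with library totals as the only scaling (adjusted p = 0.0507) and without LS1034 replicate 1 or 2 or HT-29 replicate 1 or 2 (adjusted p 0.0883 to 0.193).

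ID3 was lower in HT-29 than in LoVo (log2 fold change of LoVo over HT-29 3.67 ± 0.91, adjusted p = 0.00599), LS1034 (4.90 ± 0.96, adjusted p = 0.00129) and HCT116 (HT-29 over HCT116 -4.23 ± 0.93, adjusted p = 0.00225). Without HT-29 replicate 2 these values were 7.59, 8.82 and -8.14. ID4 was lower in HT-29 than in LoVo (5.83 ± 1.17, adjusted p = 0.00129) and LS1034 (5.93 ± 1.17, adjusted p = 0.0013). HT-29 and HCT116 both held little ID4, and the call between them (-3.11 ± 1.13, adjusted p = 0.0422) was lost with the replicate block (-2.67, adjusted p = 0.094) and without replicate 1 or 3 of either line (adjusted p 0.0572 to 0.212). ID4 was also lower in HCT116 than in LS1034 (2.83 ± 0.93, adjusted p = 0.0247) and LoVo (2.72 ± 0.93, adjusted p = 0.0415). The call against LS1034 was lost without LS1034 replicate 1 or HCT116 replicate 2 or 3 (adjusted p 0.0601 to 0.0699). The call against LoVo was lost without LoVo replicate 3, whose 13.2 CPM was 4.20 times the mean of the other LoVo libraries (1.75, adjusted p = 0.198), and without HCT116 replicate 2 or 3 (adjusted p = 0.115 and 0.111).

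ID1 was lower in LoVo than in LS1034 (log2 fold change -1.72 ± 0.53, adjusted p = 0.0216) and HCT116 (-1.52 ± 0.53, adjusted p = 0.045). The first was lost without LoVo replicate 1 or 2 or LS1034 replicate 3 (adjusted p 0.0599 to 0.0767), and the second without LoVo replicate 1 or 2 or HCT116 replicate 1 or 3 (0.076 to 0.138). HT-29 depended on replicate 2: without it ID1 was called lower in HT-29 than in LS1034 (LS1034 over HT-29 1.84, adjusted p = 0.00935, against 0.80 and 0.29 with it) and than in HCT116 (-1.62, adjusted p = 0.0132, against -0.60 and 0.403). Without HT-29 replicate 1 ID1 was called lower in LoVo than in HT-29 (-1.33, adjusted p = 0.0471). ID2 was called in none of the 6 pairs, and passed between LoVo and HCT116 without HCT116 replicate 2 (1.01, adjusted p = 0.0476).

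HT-29 replicate 2 differed from replicates 1 and 3 in some of the genes and not in others. ID3 was 47.0 times and ID1 4.31 times the mean of the other 2 libraries, and ID4 had its only counts there. ID2 stood at 1.14, BMP2 at 0.802 and BMP4 at 0.736 times. Of the other BMP targets and feedback genes, which were singled out after their values were seen, MSX1, a homeobox target, stood at 4.17 against 0.0811 CPM (51.4 times), and SMAD7, an inhibitory SMAD induced by BMP and TGF-beta signals, at 68.6 against 15.8 CPM (4.35 times). ATOH8 was 3.38 times and HEY1 2.83 times, both at under 2 CPM. SMAD4, the shared partner of the receptor SMADs, stood at 14.4 CPM against 6.96 and 3.98 CPM in replicates 1 and 3. SMAD6 and BAMBI, a further feedback pair, lay within the range of the other 2 libraries or below it. All 3 HT-29 libraries lay below the SMAD4 level of every other line (53.7 to 198 CPM). As 2.90% of all measured genes were at least 3-fold above both other libraries in replicate 2, the difference was not limited to these genes. That measure is stricter than a ratio to the mean of the others. ATOH8 (1.68 against 0.348 and 0.648 CPM) and HEY1 (1.16 against 0.452 and 0.370 CPM) did not reach it.

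**Figure D3:**
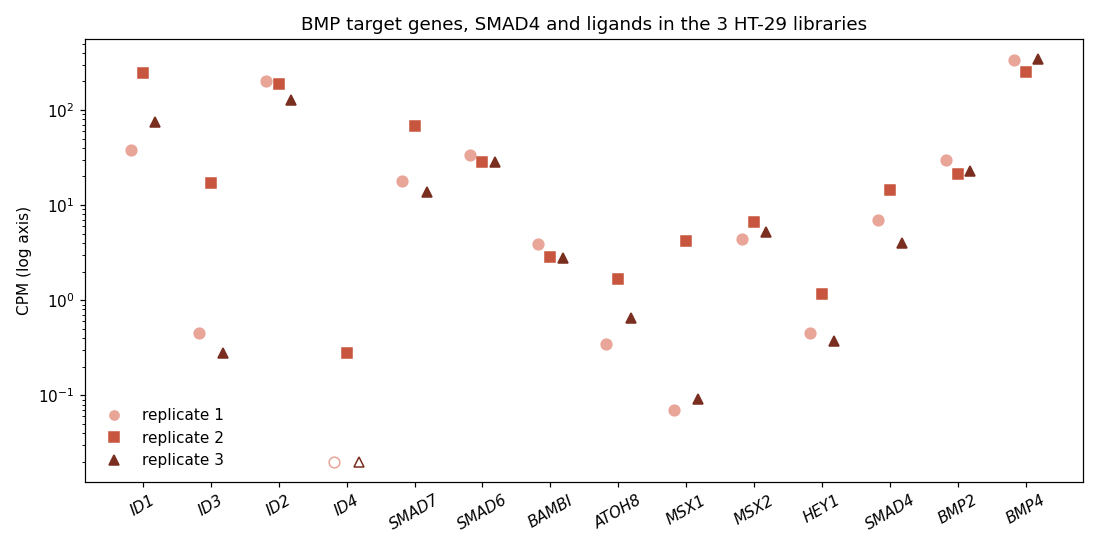
CPM (log axis) of BMP target genes, SMAD4, BMP2 and BMP4 in the 3 HT-29 libraries, with open symbols at 0.02 CPM for no count. The square of replicate 2 lies above both others in ID1, ID3, ID4, SMAD7, ATOH8, MSX1, MSX2, HEY1 and SMAD4, and below both in BMP2 and BMP4.

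The other genes of the pathway were taken from a list of 52, of which 47 were in the table and 38 passed the filter. For the mean of the 4 cancer lines 24 of the 38 were called, 6 higher and 18 lower, where 47.1% of all genes were called (24.8% higher and 22.3% lower). The median log2 fold change was -1.09, against 0.22 over all genes. In single lines 25 were called in LoVo (48.0% of all genes), 22 in LS1034 (47.1%), 23 in HT-29 (45.7%) and 27 in HCT116 (46.7%). Of these genes 14 were called lower in all 4 lines (10.9% of all genes) and 2 higher in all 4 (11.0%), and MSX1 was called higher in HCT116 and lower in HT-29. Antagonists, the largest group tested, had 6 of 9 lower and 1 higher. Receptors had 3 lower, 2 higher and 2 not called, and SMADs had 4 lower and 4 not called.

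Among the antagonists that fell with GREM1 was FST, which binds activins and some BMPs (115 ± 46.1 CPM in CCD841CoN, n = 3, log2 fold change for the mean of the lines -8.75). NOG, noggin, fell from 18.4 ± 9.13 CPM to at most 0.243 CPM (-8.52). FST was lower in LoVo too but measurable there, at 27.1 ± 20.3 CPM against at most 0.278 CPM in any library of the other cancer lines, and LoVo was also the cancer line with the most GREM1. SOSTDC1, an antagonist of BMP and WNT ligands, went the other way in HT-29, at 21.0 ± 9.87 CPM with no count in CCD841CoN (adjusted p = 5.88e-05). It was also called higher in LS1034, though the mean in HT-29 was 73.0 times that in LS1034. CHRD, chordin, was called higher in LoVo, HT-29 and HCT116 and stood at 4.80 ± 1.37, 2.81 ± 2.02 and 3.17 ± 1.06 CPM there, against 0.344 ± 0.596 CPM in CCD841CoN.

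Of the other ligands, GDF6 was called lower in all 4 lines, as BMP2 was. It stood at 83.4 ± 31.5 CPM in CCD841CoN and at most 0.194 CPM in the cancer libraries (log2 fold change -11.91 ± 0.53 for the mean of the lines). The levels of BMP2 in LoVo and HT-29 had no counterpart in GDF6. BMP8B had no count in CCD841CoN and 2.43 to 7.82 CPM on average in the cancer lines (adjusted p = 1.24e-04). Among the receptors, BMPR1A, a type I receptor for BMP2 and BMP4, was not called in any line (between -0.80 and 0.20), while BMPR2, the type II receptor, was called lower in LoVo, LS1034 and HCT116 (-1.49, -1.26 and -2.15). ACVR2B, an activin and BMP type II receptor, was called higher in all 4 lines. BMPR1B, another type I receptor, was found in LoVo at 38.3 CPM (24.2 to 58.6 CPM) and at no more than 0.833 CPM in any other library. ENG, a co-receptor typical of endothelium and mesenchyme, stood at 316 CPM (298 to 338) in CCD841CoN and 32.8 ± 4.18 CPM in HT-29, with under 1 CPM in the other 3 lines.

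Of the receptor SMADs, SMAD1 was called higher in HCT116 alone (log2 fold change 1.05 ± 0.25, adjusted p = 0.00237) and SMAD5 in LoVo alone (1.03 ± 0.36, adjusted p = 0.0257), while SMAD9 was called lower in all 4 lines. SMAD4 was called lower in HT-29 (-2.99 ± 0.44, adjusted p = 3.07e-05) and in no other line. HT-29 was the line with the lowest ID3 and ID4, while ID1 (0.25) and ID2 (0.16) were not called there. A link between SMAD4 and the ID genes was not tested. SMAD7 was called lower in HCT116 (-3.81 ± 0.50, adjusted p = 1.21e-05), where ID1 stood at 143 to 228 CPM. Of the E proteins, the partners that ID proteins bind, TCF4 fell in all 4 lines from 56.1 ± 5.06 CPM to at most 2.37 CPM, and TCF3 and TCF12 were called in none. MSX2, another homeobox target, was called higher in LoVo, LS1034 and HCT116.

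**Figure D4:**
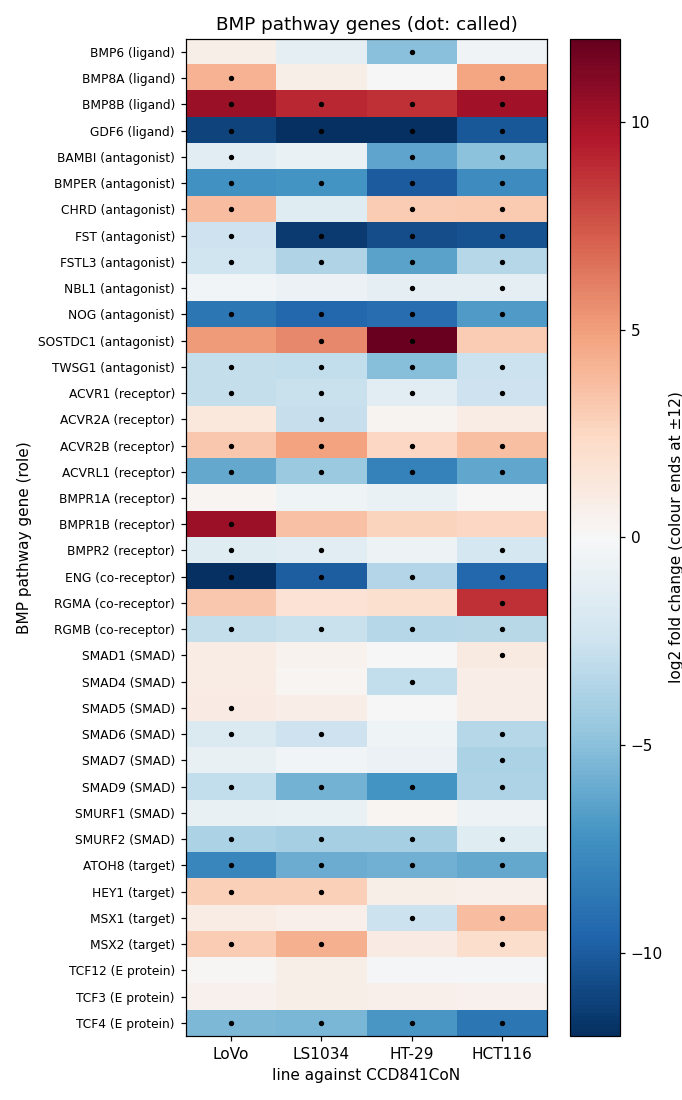
Log2 fold change against CCD841CoN of the 38 other pathway genes tested (rows, with role) in the 4 cancer lines (columns), with a dot where the gene was called. The blue rows of GDF6, NOG, BMPER, ENG and TCF4 run across all 4 lines, and BMPR1B, RGMA and SOSTDC1 reach their strongest red in 1 line each.

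The third comparison follows the 8 genes through the 16 mixtures. BMP4 rose with the share of cancer RNA, and BMP2, GREM1 and ID3 fell. Between 50 and 0.1% cancer RNA 4 of the 8 genes were called (adjusted p below 0.05 in a fit with the cancer line as a block, 13212 genes tested, 54.2% called). Between 10 and 0.1% it was BMP4 alone (7.39% of all genes called), and between 1 and 0.1% none (0.939%). At 1% the 8 genes had no unadjusted p below 0.371 in edgeR, and DESeq2 called none either.

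BMP4 stood at 34.8 to 44.2 CPM in the 4 mixtures of 0.1%, close to the 33.9 to 36.9 CPM of CCD841CoN. At 10% it reached 47.0 CPM with HCT116, 88.2 with HT-29, 112 with LoVo and 146 CPM with LS1034, and at 50% it reached 104, 220, 438 and 528 CPM in the same order. The order of the lines was thus that of their unmixed means. The log2 fold change of 50 over 0.1% was 2.78 ± 0.29 (adjusted p = 2.83e-06) and that of 10 over 0.1% was 1.22 ± 0.28 (adjusted p = 0.0144). The call at 10% was lost without the mixtures of LoVo, LS1034 or HT-29 (adjusted p 0.104 to 0.131) and without the line block (adjusted p = 0.0754). The value expected from the unmixed means and the labelled percentages lay below the observed one in most mixtures, with a median ratio of observed to expected of 1.17 over 16 mixtures (range 0.964 to 1.39).

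BMP2 stood at 246 to 268 CPM in the 0.1% mixtures and at 122 to 152 CPM in those of 50% (log2 fold change -1.08 ± 0.08, adjusted p = 9.90e-08). With 99.9% CCD841CoN RNA the 0.1% mixtures were at the level of CCD841CoN replicate 1 (253 CPM) and not of replicates 2 and 3 (481 and 499 CPM). GREM1, at 144 to 148 CPM in the same mixtures, was also nearer to replicate 1 (152 CPM) than to the other 2 (94.3 and 100.0 CPM). The ratio of observed to expected BMP2 was 0.573 to 0.698 over the 16 mixtures when the mean of the 3 CCD841CoN libraries was used, and 0.931 to 1.10 with replicate 1 alone. GREM1 fell to 57.1 to 81.5 CPM at 50% (-1.25 ± 0.08, adjusted p = 3.87e-08). Of 128 values (8 genes in 16 mixtures) 100 lay within 1.5-fold of the expected value with the mean of the CCD841CoN libraries. With replicate 1, 2 or 3 alone 115, 74 or 94 did. For BMP7, at 0 to 1.38 CPM in the 0.1% mixtures, 6 of 16 values did with the mean and 4 with replicate 1, where the ratio of observed to expected ran from 0 to 7.99.

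**Figure D5:**
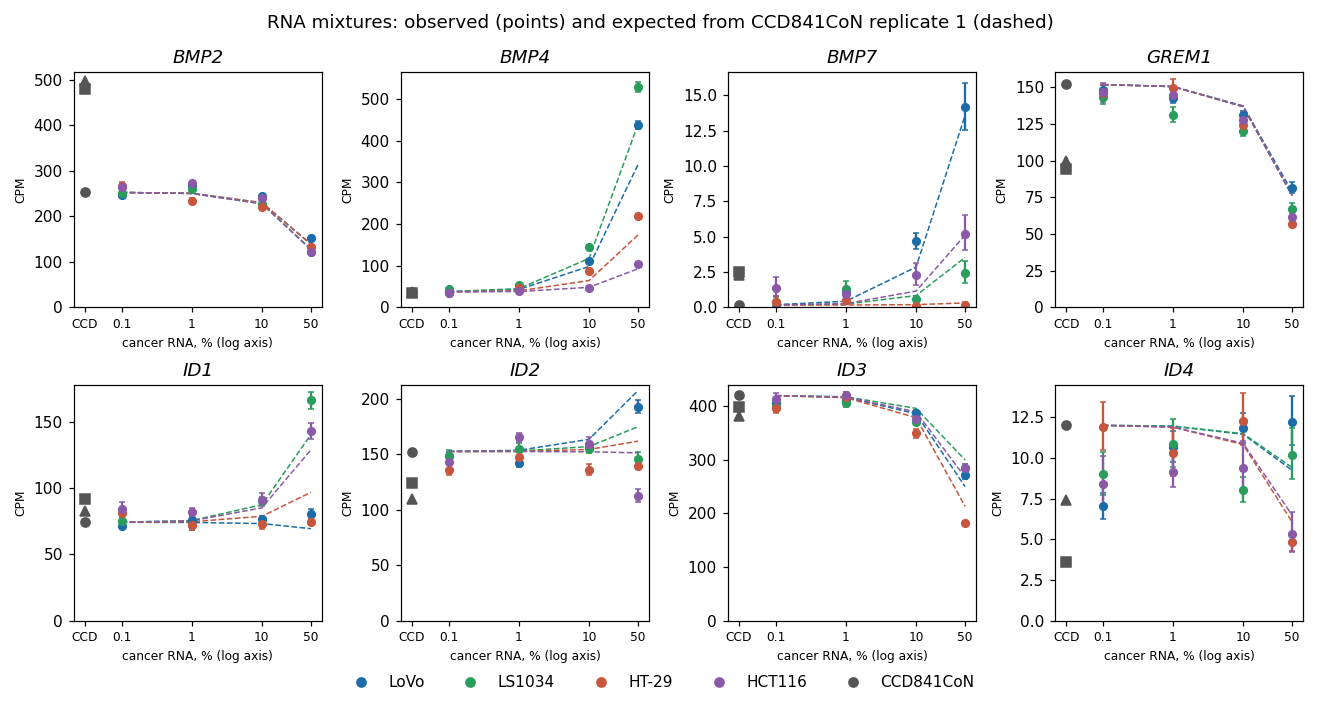
CPM of each gene in the 16 mixtures against the percentage of cancer RNA (log axis), with 95% Poisson intervals (counting error only), the 3 unmixed CCD841CoN libraries at the left (circle, square, triangle for replicates 1, 2, 3), and dashed lines for the values expected from CCD841CoN replicate 1 and the mean of the cancer line. BMP2 points follow the dashed lines from the circle and lie far under the square and triangle, and BMP4 points fan out in the order LS1034, LoVo, HT-29, HCT116.

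ID3 stood at 395 to 413 CPM in the 0.1% mixtures and at 183 CPM with HT-29 and 271 to 284 CPM with the other 3 lines at 50% (log2 fold change -0.79 ± 0.09, adjusted p = 4.35e-06). HT-29, with the least ID3 unmixed, was thus the lowest at 50% too. ID1 stood at 71.5 to 84.5 CPM at 0.1%, and at 50% it reached 166 CPM with LS1034 and 143 CPM with HCT116 against 80.2 CPM with LoVo and 74.7 CPM with HT-29. Over the 4 lines this did not pass the test (0.39 ± 0.16, adjusted p = 0.0553), and it passed without the HT-29 mixtures (0.58, adjusted p = 0.0241). With all mixtures kept, ID1 also passed with library totals as the only scaling (0.52, adjusted p = 0.0196) and with DESeq2 (0.43, adjusted p = 0.0302). In edgeR with the DESeq2 size factors it passed as well (0.43, adjusted p = 0.0483). BMP7 at 50% was 14.2 CPM with LoVo, 5.19 with HCT116, 2.42 with LS1034 and 0.201 CPM with HT-29, in the order of the unmixed means. BMP7 was not called over the 4 lines (2.34 ± 1.17, adjusted p = 0.106), on 0 to 18 counts in the 0.1% mixtures, and passed without the HT-29 mixtures (3.40, adjusted p = 0.0467). ID2 (-0.09 ± 0.12, adjusted p = 0.545) and ID4 (-0.32 ± 0.28, adjusted p = 0.347) were not called.

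The share of cancer RNA was measured from genes far higher in the cancer line of a mixture than in CCD841CoN. Such genes could be shared between cancer lines. The measured share was above the labelled one in every mixture but that of LoVo at 50% (48.5%). At the labelled 0.1% it was 0.139% for LoVo, 0.143% for HCT116, 0.159% for LS1034 and 0.206% for HT-29. At the labelled 10% it was 10.3% for LoVo, 11.3% for HCT116, 13.6% for LS1034 and 15.3% for HT-29. With these shares in place of the labelled ones 102 of the 128 values lay within 1.5-fold of the expected value.

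The genes with the most similar levels over the 15 unmixed libraries were found by Pearson's r of log2(CPM + 1) among 13567 genes; r is a description, since libraries of one line share that line. BMP2 was most like CROT (r = 0.97), a peroxisomal carnitine acyltransferase, and TPM1, a tropomyosin (0.96), and both were highest in CCD841CoN and lowest in HCT116. BMP4 was most like SH2D2A (0.98), SYK (0.96) and LAMB3 (0.96), and these were all under 1 CPM on average in CCD841CoN. GREM1 was most like HIC1, a transcriptional repressor (0.99), GSTM3 (0.99) and TBX2 (0.99), all with LoVo as the highest cancer line. ID3 was most like MMP11 (0.96), NAT1 (0.95) and APOBEC3C (0.94). ID4 was most like BAMBI, the BMP pseudoreceptor (0.94), which stood at 224 CPM in CCD841CoN, 153 in LS1034 and 114 in LoVo on average, and at 9.35 in HCT116 and 3.19 CPM in HT-29. The most similar genes of BMP7 (SLC25A3, 0.93) and ID2 (VPS13C, 0.89) had lower coefficients, and for ID1 none exceeded 0.83 (CBWD3).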

How the data were processed

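Total RNA of cell lines was sequenced after removal of ribosomal RNA with a Roche KAPA stranded kit, per the labels. Per the submitters' processing notes, the authors aligned reads to hg19 with STAR and counted them with featureCounts. Tool versions, the annotation and the strand setting are not given in the sources used here. The authors deposited raw read counts of 17113 protein-coding genes in 31 libraries (9688765 to 56741879 counts each), and every column belonged to a sample of the series.

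CPM are counts divided by the library's total and multiplied to per-million units. The tests used the quasi-likelihood functions of edgeR 4.0.16 in R 4.3.3, after filterByExpr and TMM scaling, with the 15 unmixed libraries in 1 fit (14452 genes) and the 16 mixtures in another (13212 genes, cancer line as block). Values after ± are standard errors for log2 fold changes (the size of the value over the square root of F) and SD (n = 3) for levels. For the set of cancer lines, the log2 fold changes of the 4 lines were averaged. Folds of levels are ratios of mean CPM. Expected mixture values are unmixed means weighted by the labelled percentages, and measured shares are ratios of sums over marker genes (at least 5 CPM and a log2 fold change above CCD841CoN of 5 or more). Exon lengths are GENCODE v29 unions, from another build than the counts. Python 3.11.15, pandas 2.3.3 and matplotlib 3.10.9 made levels and figures. The fits were tested on simulated data.

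Replicate numbers paired the cancer lines (18 of 18 pairs of equal number, r of deviations over all genes 0.143 to 0.468; 36 pairs of different number, -0.413 to 0.0849) and did not pair them with CCD841CoN (12 pairs, -0.0344 to 0.0227). The pairing comes from the data, since the labels state no shared day or batch. Alternatives were DESeq2 1.42.0 and its size factors (RLE), library size only, no filter, only the compared groups, the replicate block and each library left out. Single cancer line libraries as the mixture reference were added after seeing the data.

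The 8 genes, the pathway list and the marker lists were chosen with earlier results of these data known. From the pathway list the text names the called genes with the largest fold changes, the receptors BMPR1A and BMPR2 and SMAD1, SMAD4 and SMAD5. Others were chosen after their values were seen. A gene of the pathway list is not reported here and was left out of its counts. Of the listed markers PECAM1, CDH5 and CD3E were not analysed here. The endothelial marker VWF stood at no more than 4.20 CPM in the unmixed libraries. The immune markers PTPRC and CD68 summed to at most 0.483 CPM there. Promoter windows were found for ID1 to ID4 and are RefSeq sequences of GRCh38.p14.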

Additional observations from a re-analysis of the deposited data

Results flagged for a closer look

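In 5 cases the difference of a cancer line from CCD841CoN itself differed between cancer lines by the test of that difference. The means of the lines lay on opposite sides of the CCD841CoN mean. The HT-29 libraries of BMP7 and the LoVo libraries of ID1 overlapped with CCD841CoN. BMP7 was above CCD841CoN in LoVo, LS1034 and HCT116 and had a lower mean in HT-29. The log2 differences were 5.79 for LoVo against HT-29, 3.87 for LS1034 against HT-29 and -4.40 for HT-29 against HCT116, each from 3 libraries against 3 that did not overlap. BMP7 counts were low in HT-29, with 28 over its 3 libraries. The HT-29 value against CCD841CoN was not called, and CCD841CoN replicate 1 held 0.0683 times the BMP7 level of replicates 2 and 3. ID1 had a lower mean in LoVo than in CCD841CoN and a higher one in LS1034 and HCT116. The log2 differences were -1.72 for LoVo against LS1034 and -1.52 for LoVo against HCT116, and neither line's own difference from CCD841CoN was called. Both rest on single libraries, as given with the values above.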

How the results depend on the processing

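Over 1369 values of the 8 genes under other settings, 1290 kept their side of the threshold, 48 lost the call and 31 gained it. None changed sign while called, and changes of sign among uncalled values were not counted. For example, ID1 in HT-29 against CCD841CoN went from 0.25 to -0.85 without HT-29 replicate 2. For the mean of the 4 cancer lines 5 of the 8 genes were called under every left-out library. The calls of BMP2, BMP4 and GREM1 against CCD841CoN held in every line under all settings tried. A fit of the compared groups only gave 5 called genes between LoVo and LS1034 in place of 3, and could not be run apart from the main fit for the mean of the lines. In the 10% mixtures DESeq2 called 2 of the 8 genes and a fit without the line block called 0, where that fit called 502 genes in all (976 with the block). At 1% it called 6 genes in all (124 with the block). Leaving out 1 library gave 3 to 5 called genes for LoVo against HCT116, 3 to 6 for HT-29 against HCT116 and 7 to 10 pathway genes for LoVo against LS1034. Leaving out the mixtures of 1 line gave 0 to 1 of the 8 genes at 10%, with 556 to 725 genes in all, and 61 to 116 genes in all at 1%. The cause was not tested. DESeq2 gave no adjusted p for ID3 in the unmixed lines. With the replicate block over all 15 libraries BMP7 was called for the mean of the lines (1.71, adjusted p = 0.0115) and for HT-29 against CCD841CoN (-1.76, adjusted p = 0.039), though the numbers do not pair these libraries. The block changed no call of the 8 genes other than these and those given with the between-line values. Low counts limit BMP2 in HCT116, GREM1 in HT-29 and HCT116 and ID4 in HT-29, where fitted values depend on the prior count.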
